A study of Mus musculus with 22 samples.

Results

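The ear of mice labelled Socs3 cKO was compared between 8 and 10 weeks of age. The comparison covers the 4 libraries titled Socs3 cKO at 10 weeks and the 4 titled Socs3 cKO at 8 weeks, 8 of the 22 libraries of the series, and uses no wild-type (WT) library. All mice were of the C57BL/6 strain. The conditional knockout (cKO) was keratin 5-specific, that is, meant for cells that express this basal keratinocyte gene, so that other cells of the ear keep Socs3. The other 14 libraries are cKO ear at 2 weeks (4 libraries) and WT ear at 2 weeks (4), 8 weeks (3) and 10 weeks (3), and they appear below only as levels beside the cKO values and in 1 test. The labels name the source as keratinocytes and the tissue as ear, and per the labels' protocols RNA came from ear specimens. Keratins of the epidermis (Krt5, Krt14, Krt10), matrix genes of the dermis (Col1a1, Sparc), skeletal muscle genes (Acta1, Mylpf) and cartilage genes (Chad) were all measured well above 1 FPKM in these 8 libraries, so they are described as whole ear. The series is about SOCS3 in keratinocytes and chronic disease of the skin, and this comparison asks what changed in the ear over the last of the sampled ages.

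SOCS3 is an inhibitor of cytokine signalling. Interleukin-6 and its relatives bind receptors that contain gp130 or a related chain, the receptors activate JAK kinases, and these activate the transcription factor STAT3. STAT3 induces Socs3, whose protein binds the gp130 receptor and its JAK kinase and so limits the signal. In skin, STAT3 cytokines come from leukocytes, fibroblasts and keratinocytes, and STAT3 activity in keratinocytes is known from psoriasis and from wound healing. Genes such as Il6 and Cxcl1 are also induced through the transcription factors NF-kappa B and AP-1, and their mRNAs are short-lived.

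Promoters of Il6 and Cxcl1, the genes with the largest rises below, and of Socs3 itself are shown because each holds a match to the motif of a transcription factor of these pathways. They are a selection, since promoters of other large rises were searched too. Cxcl2 and a window of Tnfaip3 held kappa B matches, whereas Ptgs2 and Nr4a1 held no match to any motif searched, and Fosl1 had no window. Each sequence gives the 250 bases before the RefSeq start of the gene, 5′ to 3′ on the strand of the gene, from GRCm38.p6, matched by gene symbol because the files are on another build. Il6 lies on the plus strand at chr5:30012864-30013113, Cxcl1 on the plus strand at chr5:90890995-90891244 and Socs3 on the minus strand at chr11:117969367-117969616. Capitals mark matches to the kappa B motif (in Il6 and Cxcl1), to the AP-1 motif TGANTCA (in Il6) and to the STAT motif TTCNNNGAA (in Socs3).
Il6: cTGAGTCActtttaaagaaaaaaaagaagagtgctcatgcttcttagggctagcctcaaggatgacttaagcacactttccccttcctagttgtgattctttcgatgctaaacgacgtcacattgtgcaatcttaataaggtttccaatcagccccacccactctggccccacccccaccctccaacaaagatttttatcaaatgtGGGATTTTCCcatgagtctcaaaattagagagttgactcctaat
Cxcl1: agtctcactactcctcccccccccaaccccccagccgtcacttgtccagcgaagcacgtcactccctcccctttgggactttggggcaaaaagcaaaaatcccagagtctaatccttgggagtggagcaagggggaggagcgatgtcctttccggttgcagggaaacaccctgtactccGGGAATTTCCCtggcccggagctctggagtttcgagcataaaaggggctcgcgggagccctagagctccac
Socs3: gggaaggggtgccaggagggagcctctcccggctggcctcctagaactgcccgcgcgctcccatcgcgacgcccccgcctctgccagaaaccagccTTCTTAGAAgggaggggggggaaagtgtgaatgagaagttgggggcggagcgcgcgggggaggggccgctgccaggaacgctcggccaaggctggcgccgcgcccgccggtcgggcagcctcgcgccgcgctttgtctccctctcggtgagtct
The kappa B match begins 44 bases before the start in Il6 and 71 bases before it in Cxcl1, where an overlapping match begins at 70 bases. The STAT match of Socs3 begins 154 bases before the start, and the AP-1 match of Il6 lies at the far end of its window. A match is a description of the letters and not a measured site.

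Values are FPKM, that is, fragments per length of transcript and per total of mapped fragments, as the authors computed them, and changes are differences of mean log2(FPKM + 1), 10 weeks minus 8 weeks, which understate the change of genes near or below 1 FPKM. The files list 21110 genes, and the 13000 with 1 FPKM or more in 4 or more of these 8 libraries were tested with limma. A gene is called, and is said to have risen or fallen, where its Benjamini-Hochberg adjusted p over these 13000 genes was under 0.05. The files hold no counts, so depth in reads is unknown. Steps between low values gave 1 common ratio of libraries for only 23.8% to 40.8% of the genes compared, and depth was not read from them. Ribosomal protein genes held 26.9%, 17.5%, 23.7% and 17.9% of all FPKM in the 8-week libraries 1 to 4 and 16.5%, 16.4%, 15.3% and 21.9% in the 10-week libraries 1 to 4. Their part in the results was not tested other than by the fits given below and in the closing section. The Y-linked gene Eif2s3y exceeded 10 FPKM in replicates 1 and 2 of each age and was below 1 FPKM in replicates 3 and 4, so both ages held 2 libraries of each kind. Replicates correlated at r = 0.892 to 0.963 across genes at 8 weeks and at 0.947 to 0.979 at 10 weeks. Separate animals are not named in the labels, and the spread behind each p-value is that between libraries, which may be technical. In whole tissue, fewer cells of a type and less RNA per cell cannot be told apart.

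Socs3, the gene named in the genotype, rose. It was 1.6, 5.3, 8.47 and 6.84 FPKM at 8 weeks and 36.5, 29.8, 47.7 and 32.4 FPKM at 10 weeks. The 10-week libraries all lay above the 8-week libraries, with means of 5.55 ± 2.94 FPKM at 8 weeks and 36.6 ± 7.9 FPKM at 10 weeks (SD, n = 4 each) (2.65, SE 0.37, adjusted p = 0.0101). An exact two-sided permutation test of the mean log2(FPKM + 1) gave p = 0.0286, which is the smallest value possible with 4 libraries a group. The gene was 1.25 to 12.6 FPKM in the cKO libraries and 9.71 to 10.3 FPKM in the WT libraries of 2 weeks, 0.604 to 1.36 FPKM in WT at 8 weeks and 2.02 to 4.81 FPKM in WT at 10 weeks. The libraries labelled cKO thus held more Socs3 than WT at 8 and at 10 weeks. That is the opposite direction to a loss of the gene, but these values cover all cells of the ear. At 2 weeks the ranges overlapped, with a lower median in cKO (6.41 against 10.3 FPKM). The older WT libraries also differ in kind, with ribosomal shares of 31.3% to 41% at 8 weeks and 21.3% to 28.8% at 10 weeks. The median FPKM of the tested genes was 2.67 to 5.28 and 6.03 to 8.15 in WT at these ages, and 7.02 to 10.3 and 8.5 to 9.75 in cKO. The part of this in the Socs3 levels was not tested, and WT levels given below share this limit. Directions below refer to libraries as labelled. A value for the gene in whole ear does not check a deletion in keratinocytes.

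Between 8 and 10 weeks 156 genes rose and 51 fell, 1.59% of the genes tested. The rises were led by cytokines, chemokines and early response genes, Il6 (5.51), Cxcl1 (5.42), Fosl1 (4.39) and Ptgs2 (4.07), and the falls were smaller, led by Spon2 (−2.26) and Rmrp (−2.18). The median change of all 13000 genes was 0.01. All 207 called genes had 8 libraries that did not overlap between the ages, and over all genes tested the libraries did not overlap for 5.08% in the higher direction and 4.63% in the lower. Of the 156 rises 51 stayed called whichever single library was left out, and of the 51 falls 2 did. Without the 10-week library 1, 2 or 3 the counts were 55 higher and 4 lower, 60 and 2, and 53 and 4. Without the 8-week library 3 they were 100 and 13, without 8-week library 4 they were 115 and 21, and without 8-week library 1 they were 143 and 94. None of the 207 genes changed sign in any of these fits. Scaling the libraries by median-of-ratios factors, so that the median gene is held level, gave 187 higher and 29 lower (86.6% higher, against 75.4% as deposited).

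**Figure D1:**
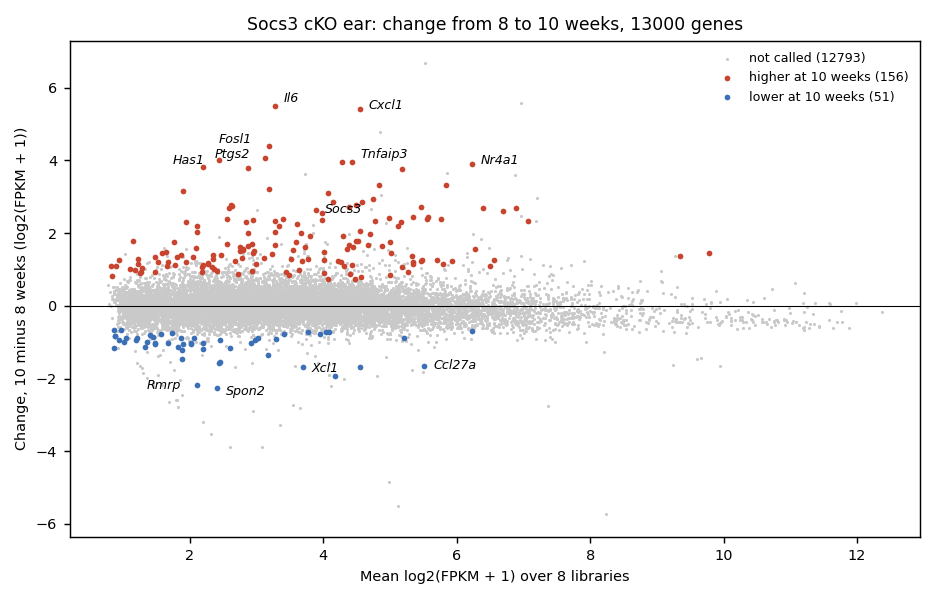
Change from 8 to 10 weeks in Socs3 cKO ear (y axis, log2(FPKM + 1), 10 minus 8 weeks) against the mean level over the 8 libraries (x axis, log2(FPKM + 1)), 1 point per gene for 13000 genes. Red points are the 156 genes that rose and blue points the 51 that fell; grey points did not pass the test, and the largest called rises are Il6 (5.51) and Cxcl1 (5.42).

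In the lists that follow, members that were not called and are not among the 2 most abundant of their list were chosen for naming after their values were seen, except in the STAT3 cytokine, receptor, inhibitor and JAK and STAT lists. Signs of changes in the lists are read beside all 13000 genes, where 50.6% of changes were positive. Among the ligands of the STAT3 pathway 3 of 8 tested members rose, against 1.2% of all genes, and the median change of the 8 was 0.99. Il6, the founding cytokine of the family, was 0.524, 0.237, 0.294 and 0.714 FPKM at 8 weeks and 43.7, 42.8, 82.2 and 109 FPKM at 10 weeks. All 4 libraries of 10 weeks lay far above all 4 of 8 weeks, with means of 0.442 ± 0.219 FPKM at 8 weeks and 69.4 ± 32.1 FPKM at 10 weeks (SD, n = 4 each) (5.51, SE 0.31, adjusted p = 9.09e-05), and the cKO libraries of 2 weeks (0.0684 to 1.35 FPKM) and the WT libraries of 8 and 10 weeks (0.0696 to 0.69 FPKM) were at or near the 8-week level. Osm, oncostatin M, a gp130 cytokine made by leukocytes, was 0.311, 0.082, 0.267 and 0.132 FPKM at 8 weeks and 2.81, 2.62, 3.58 and 3.54 FPKM at 10 weeks (1.79, SE 0.15, adjusted p = 0.000536). Il10, which restrains inflammation through STAT3, was 0.3, 0.19, 0.412 and 0.163 FPKM at 8 weeks and 1.43, 1.27, 1.26 and 3.42 FPKM at 10 weeks (1.11, SE 0.23, adjusted p = 0.0483), and its level in the 10-week library 4 stood apart from the other 3. The Il10 call ended without any 1 of the other 7 libraries (adjusted p 0.0695 to 0.129) and with median-of-ratios scaling (0.0548), whereas Il6 and Osm stayed called whichever library was left out. Il24, a cytokine of the IL-20 group, was 0.0725, 0, 0.0712 and 1.14 FPKM at 8 weeks and 1.66, 0.98, 5.75 and 2.53 FPKM at 10 weeks and did not pass (1.42, adjusted p = 0.126). Clcf1 (0.87), Lep (0.13), Ctf1 (−0.45) and Cntf (−0.47) did not pass either. The other 9 of the 17 members in the files were below the filter. One of them, the granulocyte growth factor Csf3, was listed at 0 in 3 of the 8-week libraries and was 0.523, 0.386, 1.67 and 1.17 FPKM at 10 weeks, and Il31 and Il21 were listed at 0 in all 8 libraries.

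Receptors and kinases of the pathway are read beside the 1.59% of all genes that were called. Of 14 tested receptor chains 1 rose, with a median of 0.27. It was Il10ra, the IL-10 receptor of leukocytes, at 1.63, 3.06, 2.98 and 2.37 FPKM at 8 weeks and 6.05, 6.3, 6.99 and 5.82 FPKM at 10 weeks (1.07, SE 0.18, adjusted p = 0.0229), a call that ended without the 8-week library 4 (0.0645) or the 10-week library 1, 2 or 3 (0.0952 to 0.1). Il6ra, which binds IL-6, was 3.06, 9.74, 9.84 and 10.6 FPKM at 8 weeks and 15.5, 19.9, 22.1 and 8.95 FPKM at 10 weeks (0.96, adjusted p = 0.292), and the groups overlapped. Il6st, which encodes gp130, was 20.7, 51.4, 16.8 and 61 FPKM at 8 weeks and 51.7, 46.3, 45.4 and 31.4 FPKM at 10 weeks and overlapped too (0.40, adjusted p = 0.699). Changes of the oncostatin M receptor chain Osmr (0.29), of Lifr (0.26), of Il20rb (0.13) and of Il11ra1 (−0.43) did not pass. Of 10 tested JAK and STAT genes 0 passed (2 had an unadjusted p under 0.05), with a median of 0.15. Stat3 was 19.2, 40.7, 30.2 and 46.7 FPKM at 8 weeks and 43.7, 50.1, 60.3 and 32.2 FPKM at 10 weeks (0.47, adjusted p = 0.503), so that 2 of its 10-week libraries lay above the highest of 8 weeks and the others among them. Jak1 (0.38, adjusted p = 0.279) and Jak2 (0.41, 0.234) did not overlap between the ages and did not pass.

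The inhibitors of the pathway rose in 2 of 13, against 1.2% of all genes, with a median of 0.47. Beside Socs3 it was Cish, an inhibitor induced through STAT5, at 2.1, 5.42, 8.86 and 7.11 FPKM at 8 weeks and 22.7, 22.6, 31.6 and 21.9 FPKM at 10 weeks (2.01, SE 0.33, adjusted p = 0.0207). The 10-week library 3 was the highest for both. The Cish call ended without the 10-week library 1, 2 or 3 (adjusted p 0.0713 to 0.0888), and that of Socs3 did not (0.0377 to 0.0499). Socs4 (0.85, adjusted p = 0.0779) and Socs6 (0.65, 0.163) did not overlap between the ages without passing, and Socs4 passed with median-of-ratios scaling (0.037). Socs1, which acts on interferon and cytokine receptors, was 2.28, 9.21, 6.96 and 7.93 FPKM at 8 weeks and 6.33, 6.87, 13.5 and 9.36 FPKM at 10 weeks (0.47), and Socs2 was 0.67. Protein inhibitors of STATs and the phosphatases stayed within −0.10 (Pias3) and 0.48 (Ptpn11). Over the 13 genes the lowest change was −0.39, and 3 changes were negative.

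Among genes known as targets of STAT3, 4 of 20 rose and 0 fell, against 1.2% and 0.392% of all genes, with a median of 0.81. Cebpd, a transcription factor of the acute phase response, was 4.32, 8.24, 9.23 and 9.67 FPKM at 8 weeks and 63.9, 49.5, 52.6 and 67.3 FPKM at 10 weeks (2.78, SE 0.24, adjusted p = 0.000581). Its levels rose in every 10-week library to several times the highest of 8 weeks, and the call held whichever library was left out. Myc, a driver of cell growth, was 11.4, 21.3, 18.2 and 26.4 FPKM at 8 weeks and 60.1, 65.3, 60.6 and 31.7 FPKM at 10 weeks (1.45, SE 0.30, adjusted p = 0.0483), with the 10-week library 4 apart from the other 3. Mcl1, which protects cells from death, was 48.4, 57.7, 62.2 and 77 FPKM at 8 weeks and 123, 120.3, 155 and 129.97 FPKM at 10 weeks (1.11, SE 0.18, adjusted p = 0.0174). The fourth was Socs3. The Mcl1 call ended without the 8-week library 3 (0.0502) or the 10-week library 1, 2 or 3 (0.0627 to 0.0797), and the Myc call without any 1 library other than the 10-week library 4 (0.0516 to 0.178). Junb (2.33, adjusted p = 0.0572), Cebpb (1.04, 0.0622), Pim1 (1.40, 0.136) and Bcl3 (1.19, 0.189) did not overlap between the ages and did not pass, although Junb did with median-of-ratios scaling (0.0331). Secreted targets were not called, and Lcn2 (0.29), Lrg1 (−0.55), Timp1 (−0.16) and Hp (−0.46) all overlapped. Saa3, an acute phase protein, was 1.3, 1.2, 16.2 and 2.76 FPKM at 10 weeks and thus high in library 3 alone.

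**Figure D2:**
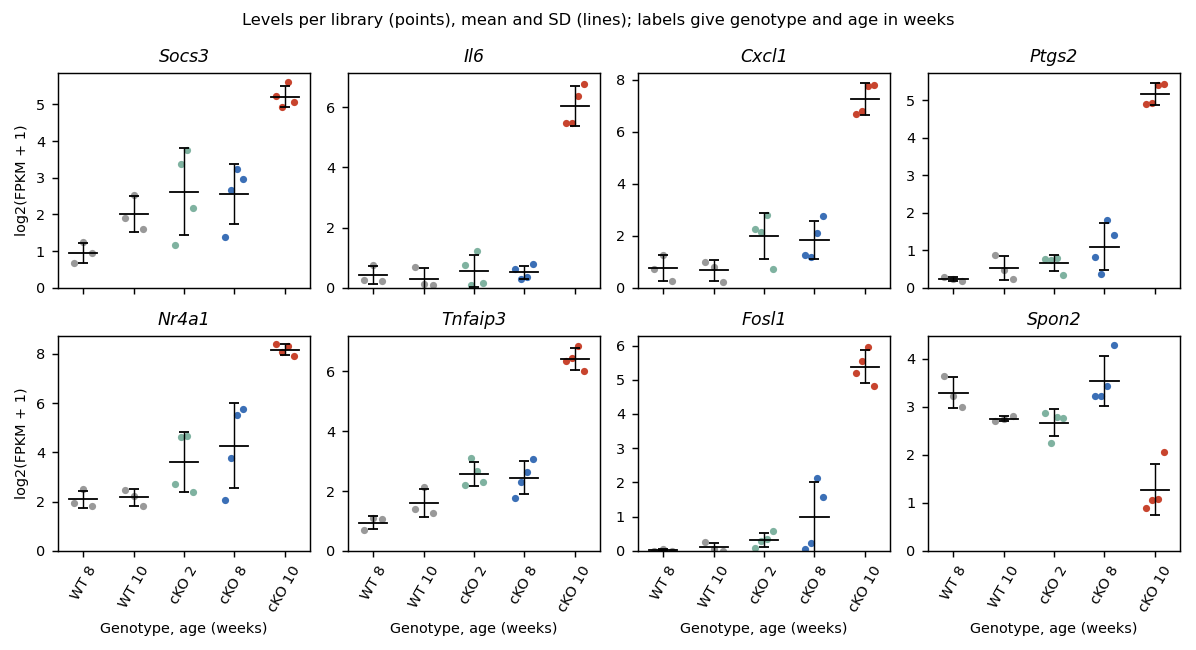
Level per library (points, log2(FPKM + 1) on the y axis) of 8 genes in WT at 8 and 10 weeks and in Socs3 cKO at 2, 8 and 10 weeks, with the mean and SD of each group as black lines. In every panel but that of Spon2 the 4 cKO libraries of 10 weeks lie above all others shown; for Spon2 they lie below them.

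Chemokines of neutrophils and monocytes rose in 4 of 11, against 1.2% of all genes, with a median of 1.09. All 11 changes were positive, against 50.6% over all genes. Cxcl1, which recruits neutrophils, was 1.41, 1.3, 3.29 and 5.81 FPKM at 8 weeks and 101, 109, 217 and 223 FPKM at 10 weeks (5.42, SE 0.40, adjusted p = 0.000301). Its partner Cxcl2 was 0, 0.556, 0.166 and 0.205 FPKM at 8 weeks and 12.3, 11.6, 28.6 and 16.6 FPKM at 10 weeks (3.82, SE 0.28, adjusted p = 0.000301). The monocyte chemokine Ccl2 was 6.92, 3.83, 12 and 12.6 FPKM at 8 weeks and 63.2, 70.9, 109.7 and 131 FPKM at 10 weeks (3.32, SE 0.36, adjusted p = 0.0025), and its relative Ccl7 was 17.8, 7.6, 25.3 and 23.4 FPKM at 8 weeks and 119, 137, 219 and 293 FPKM at 10 weeks (3.33, SE 0.40, adjusted p = 0.00395). For all 4 genes the 10-week libraries 3 and 4 were the highest, and no library that was left out ended a call. Cxcl1 was 0.652 to 6.03 FPKM in cKO at 2 weeks and 0.164 to 1.4 FPKM in WT at 8 and 10 weeks, so the high levels were those of the 4 cKO libraries of 10 weeks. Cxcl5, made by epithelia, was 0.365, 0.821, 0.492 and 1.37 FPKM at 8 weeks and 1.34, 1.27, 7.9 and 4.38 FPKM at 10 weeks and overlapped (1.21, adjusted p = 0.232). Ccl8, a monocyte chemokine, was 367, 205, 255 and 88.4 FPKM at 8 weeks and 281, 255, 297 and 407 FPKM at 10 weeks (0.58) and overlapped as well.

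Chemokines of lymphocytes moved in both directions, with 1 of 9 higher and 1 lower (1.2% of all genes rose and 0.392% fell). Cxcl10, which binds CXCR3 on T cells, was 1.39, 0.569, 0.68 and 1.36 FPKM at 8 weeks and 17.9, 14, 58.4 and 31.2 FPKM at 10 weeks (3.79, SE 0.40, adjusted p = 0.00207), highest in library 3. Ccl27a, a chemokine of the epidermis that draws T cells, was 119, 51.1, 92.9 and 71.7 FPKM at 8 weeks and 21.9, 15.8, 23.8 and 45.1 FPKM at 10 weeks (−1.65, SE 0.34, adjusted p = 0.0499). Ccl27a has near-identical copies among which reads may be split, and the gene models Gm2506 (−1.92) and Gm13306 (−1.68), named after their values were seen, also fell, with calls that held in 2 and 1 of the 8 fits that left out 1 library and ended with median-of-ratios scaling (0.0646 and 0.0711). The Ccl27a call was close to the threshold and ended with median-of-ratios scaling (0.08) and without the 8-week library 1, 3 or 4 or the 10-week library 1, 2 or 3 (0.0743 to 0.178). Ccl27a was 60.7 to 104 FPKM in WT at 8 weeks and 22.6 to 32.1 FPKM in WT at 10 weeks.

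Response genes of TNF and NF-kappa B rose in 7 of 15, against 1.2% of all genes, with a median of 0.92. Tnfaip3, which encodes A20, an inhibitor of NF-kappa B signalling, was 2.43, 3.9, 5.2 and 7.41 FPKM at 8 weeks and 79.98, 86, 116 and 63.1 FPKM at 10 weeks (3.97, SE 0.29, adjusted p = 0.000301). Nfkbia, the inhibitor that holds NF-kappa B in the cytoplasm and is induced by it, was 29.2, 50.02, 39 and 74.6 FPKM at 8 weeks and 318, 331, 387 and 197 FPKM at 10 weeks (2.69, SE 0.31, adjusted p = 0.00299). Tnfaip2 was 2.75, 6.95, 6.4 and 7.53 FPKM at 8 weeks and 54.1, 47.1, 55.6 and 34.2 FPKM at 10 weeks (2.86, SE 0.28, adjusted p = 0.0014). These 3 genes rose in every 10-week library and stayed called whichever library was left out. Icam1, an adhesion molecule for leukocytes, was 7.08, 21.8, 15.1 and 22.1 FPKM at 8 weeks and 68, 68.3, 114 and 54.1 FPKM at 10 weeks (2.20, SE 0.36, adjusted p = 0.0185), and its call ended without the 8-week library 3 (0.0545) or the 10-week library 1, 2 or 3 (0.065 to 0.0721). The other 3 called members, named after their values were seen, were the cytokine Tnf itself (1.35), the survival factor Birc3 (1.09) and the adhesion molecule Vcam1 (0.92), which were called in 5, 6 and 0 of the 8 fits that left out 1 library. The Vcam1 call also ended with median-of-ratios scaling (0.0554). Without the 10-week library 1, 2 or 3 the count of the list was 4, 4 and 3. The NF-kappa B subunits Nfkb1 (0.31), Nfkb2 (0.33), Rela (0.37) and Relb (0.12) overlapped between the ages. Tnfaip6, a hyaluronan-binding protein induced by TNF that is in no list, was 7.62, 8.45, 6.14 and 14.9 FPKM at 8 weeks and 128, 112, 178 and 124 FPKM at 10 weeks (3.78, SE 0.26, adjusted p = 0.000221). Has1, a hyaluronan synthase also outside the lists, was 0.035, 0.481, 0.206 and 0.81 FPKM at 8 weeks and 17.6, 18, 26.4 and 21.9 FPKM at 10 weeks (4.01, SE 0.22, adjusted p = 9.09e-05), so that a gene near the floor of measurement at 8 weeks was clearly present at 10 weeks.

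In the IL-17 and IL-23 axis 3 of 8 rose, against 1.2% of all genes, with a median of 0.86. Ccl20, which draws CCR6-bearing IL-17 cells and dendritic cells, was 3.32, 1.54, 4.79 and 8.36 FPKM at 8 weeks and 44.6, 104, 87.2 and 78.2 FPKM at 10 weeks (3.95, SE 0.40, adjusted p = 0.00147). Nfkbiz, an NF-kappa B cofactor that IL-17 induces in keratinocytes, was 7.21, 7.46, 6.96 and 10.2 FPKM at 8 weeks and 61, 65.1, 97.6 and 41.8 FPKM at 10 weeks (2.86, SE 0.25, adjusted p = 0.000641). Zc3h12a, an RNase that degrades cytokine mRNAs such as that of Il6, was 1.65, 6.68, 10.7 and 6.54 FPKM at 8 weeks and 35.9, 39.5, 57 and 23.5 FPKM at 10 weeks (2.55, SE 0.44, adjusted p = 0.023), and this call ended without the 8-week library 4 (0.0516) or the 10-week library 1, 2 or 3 (0.0872 to 0.0911). The receptor chains Il17ra (0.83), Il17rc (−0.05) and Il17re (−0.13) did not pass. Il17a, below the filter, was 0, 0.217, 0.336 and 0 FPKM at 8 weeks and 0.69, 2.66, 1.31 and 1.98 FPKM at 10 weeks, and Il22 was at 0 in 6 of the 8 libraries and below 0.07 FPKM in the others. Of 19 members of the IL-1 and IL-36 family, 2 rose, with a median of 0.37. Il1b, made by myeloid cells, was 1.24, 0.559, 2.14 and 1.76 FPKM at 8 weeks and 12.1, 12.3, 21.3 and 16.6 FPKM at 10 weeks (2.79, SE 0.27, adjusted p = 0.00115), and Nlrp3, the sensor of the inflammasome that matures it, was 0.052, 0.256, 0.289 and 0.389 FPKM at 8 weeks and 1.46, 1.76, 2.69 and 2.11 FPKM at 10 weeks (1.26, SE 0.17, adjusted p = 0.00832). The epidermal members did not pass, among them Il1a (−0.15), Il18 (0.30), Il33 (−0.67) and the IL-36 genes Il1f6 (0.59), Il1f8 (0.52) and Il1f9 (−0.35).

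Immediate-early genes, which cells transcribe within minutes of a stimulus, rose in 7 of 18, against 1.2% of all genes. All 18 changes were positive, against 50.6% over all genes, with a median of 1.91. Fosl1, a subunit of AP-1, was 0.0465, 0.164, 3.41 and 1.95 FPKM at 8 weeks and 35.8, 45.8, 61.7 and 27.3 FPKM at 10 weeks (4.39, SE 0.47, adjusted p = 0.00226) and stayed called whichever library was left out. The nuclear receptor Nr4a1 was 3.2, 12.5, 44.4 and 53 FPKM at 8 weeks and 332, 272, 314 and 242 FPKM at 10 weeks (3.90, SE 0.70, adjusted p = 0.0286). Its 8-week libraries ranged widely while those of 10 weeks lay close together, and the call ended without the 8-week library 2 (0.0713) or any 1 library of 10 weeks (0.0572 to 0.11). Atf3, a stress-induced repressor, was 3.66, 4.65, 19.7 and 14.7 FPKM at 8 weeks and 75.1, 68.8, 98.9 and 56.9 FPKM at 10 weeks (2.95, SE 0.46, adjusted p = 0.0151). Zfp36, which encodes tristetraprolin, a protein that destabilizes AU-rich cytokine mRNAs, was 13.3, 40.8, 28 and 69.7 FPKM at 8 weeks and 263, 214, 277 and 130.3 FPKM at 10 weeks (2.68, SE 0.45, adjusted p = 0.0222). The calls of Atf3 and Zfp36 ended without the 10-week library 1, 2 or 3 (0.0611 to 0.0917), and that of Zfp36 also without the 8-week library 3 (0.064). Of the other called members, named after their values were seen, Ier3 (2.40) and Btg2 (2.39) kept their call in every such fit and Klf6 (1.21) in 1 of 8. Without the 10-week library 1, 2 or 3 the list held 3 called members in each case. Fos (1.6, adjusted p = 0.153) and Egr1 (1.83, 0.234) overlapped, since Egr1 was 9.62, 55.5, 45.1 and 132 FPKM at 8 weeks and 201, 156, 201 and 91.4 FPKM at 10 weeks. The summed level of the list was 230.0 to 974 FPKM at 8 weeks and 1723 to 2651 FPKM at 10 weeks.

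**Figure D3:**
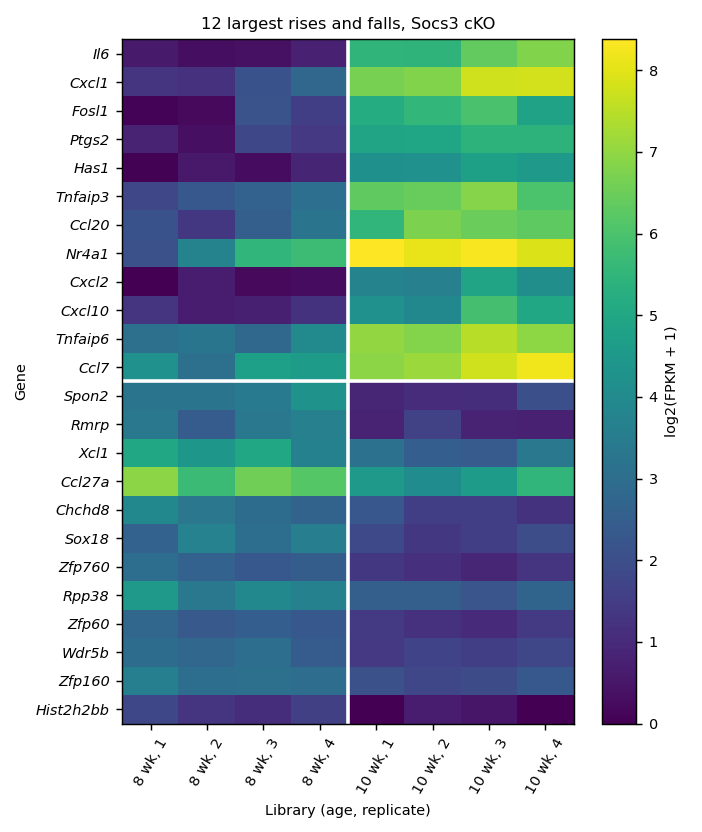
Level of the 12 largest rises (above the white line) and 12 largest falls (below it) in each of the 8 Socs3 cKO libraries, as colour on the scale log2(FPKM + 1); columns are libraries by age in weeks and replicate. The 8-week libraries 1 to 4 differ in Nr4a1 (3.20 to 53.0 FPKM), while the 4 libraries of 10 weeks are alike in most rises.

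Feedback and matrix genes gave a few further rises, read beside the 1.2% of all genes that rose. Errfi1, a feedback inhibitor of the EGF receptor, was 11, 15.7, 19.3 and 19.99 FPKM at 8 weeks and 149.9, 111, 94.9 and 102 FPKM at 10 weeks (2.73, SE 0.22, adjusted p = 0.000536) and was the 1 called member of 10 in the list of EGFR ligands and feedback, whose median was 0.99. Hbegf, an EGFR ligand of wounded epidermis, was 1.95, 4.15, 6.49 and 16.3 FPKM at 8 weeks and 27.7, 28.9, 50.1 and 19.9 FPKM at 10 weeks (2.22, adjusted p = 0.0665), and Ereg was 10.6, 3.03, 18.5 and 5.69 FPKM at 8 weeks and 24.1, 37.1, 38.2 and 20.4 FPKM at 10 weeks (1.76, 0.107), both without overlap and without passing, and Hbegf passed with median-of-ratios scaling (0.0385). Matrix proteases and their inhibitors rose in 4 of 18, with a median of 0.14. Among them were the aggrecanase Adamts4 (2.32), the urokinase receptor Plaur (1.68) and Adamts1 (1.37). Plaur was 2.5, 5.92, 3.43 and 7.14 FPKM at 8 weeks and 16, 14.8, 19.5 and 15.8 FPKM at 10 weeks. These 3 calls ended without the 8-week library 3 or the 10-week library 1, 2 or 3 (adjusted p 0.053 to 0.174). Those of Adamts4 and Adamts1 also ended without the 8-week library 1 or 4 (0.0574 to 0.069). The collagenases and gelatinases Mmp2 (0.45), Mmp3 (−0.39), Mmp9 (−0.13) and Mmp14 (−0.20) overlapped.

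Clock genes rose in 4 of 15, against 1.2% of all genes, with a median of 0.71. Per1, a repressor of the clock that is also induced by glucocorticoids and stress, was 2.71, 8.88, 15.3 and 6.33 FPKM at 8 weeks and 61.9, 53.9, 54.2 and 42.4 FPKM at 10 weeks (2.72, SE 0.39, adjusted p = 0.0104). Bhlhe40, another repressor, was 13, 24.2, 17.3 and 25.5 FPKM at 8 weeks and 117, 101, 129 and 95.9 FPKM at 10 weeks (2.45, SE 0.22, adjusted p = 0.000877). Per2 (1.58, SE 0.27, adjusted p = 0.023) and Cry2 (1.79, SE 0.35, adjusted p = 0.0422) belong to the same repressor arm. Bhlhe40 stayed called whichever library was left out. Per1 lost its call without the 10-week library 1 (0.0505) or 3 (0.0506), and Per2 and Cry2 lost theirs without the 8-week library 3 or 4 or the 10-week library 1, 2 or 3 (0.065 to 0.156). Arntl and Npas2, which belong to the activating arm, lay lower without passing, and neither overlapped between the ages. Arntl was 9.77, 10.9, 13.2 and 17.1 FPKM at 8 weeks and 5.97, 7.32, 8.69 and 5.88 FPKM at 10 weeks (−0.77, adjusted p = 0.125). Npas2 was 1.41, 3.69, 1.71 and 4.55 FPKM at 8 weeks and 0.869, 0.745, 1.15 and 0.453 FPKM at 10 weeks (−1.02, 0.134). Of the 15 clock genes 12 had positive changes and 3 negative ones, so the fall of Arntl and Npas2 was not that of most members. Nr1d1 (−0.38) and Dbp (0.28) overlapped. The labels give no hour of collection, so hour and age cannot be told apart.

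Markers of myeloid cells and mast cells were higher at 10 weeks in most members, and 2 of each list passed singly, beside 1.59% of all genes. Of 19 monocyte and macrophage markers 2 rose, 17 changes were positive and the median was 0.82. Cd14, a coreceptor for bacterial lipopolysaccharide, was 7.32, 5.89, 7.83 and 4.32 FPKM at 8 weeks and 22.3, 21.4, 26 and 38 FPKM at 10 weeks (1.92, SE 0.23, adjusted p = 0.00443), and Csf1r, the receptor for macrophage growth factor, was 19.7, 33.2, 27.7 and 17.8 FPKM at 8 weeks and 53.9, 50.8, 49.5 and 52.3 FPKM at 10 weeks (1.08, SE 0.20, adjusted p = 0.0344). Cd14 stayed called whichever library was left out, and Csf1r lost its call without any 1 library other than the 8-week library 2 (0.0516 to 0.133). The summed level of the list was 421 to 1226 FPKM at 8 weeks, lowest in library 4, and 1203 to 2007 FPKM at 10 weeks. The 8-week libraries 1 and 3 (1226 and 1219 FPKM) thus lay among those of 10 weeks. In cKO at 2 weeks the sum was 670 to 1264 FPKM. Of 10 mast cell and basophil markers 2 rose and all 10 changes were positive, with a median of 1.28. Hdc, which makes histamine in mast cells and is also in the neutrophil list, was 1.13, 1.57, 1.52 and 1.24 FPKM at 8 weeks and 11.8, 15.6, 16.1 and 13.6 FPKM at 10 weeks (2.69, SE 0.17, adjusted p = 0.00011) and was 14.3 to 17.3 FPKM in cKO at 2 weeks. The mast cell receptor Mrgprb1 was 3.41, 1.99, 2.66 and 1.3 FPKM at 8 weeks and 5.91, 5.54, 7.99 and 8.58 FPKM at 10 weeks (1.28, SE 0.24, adjusted p = 0.0324), a call that ended with median-of-ratios scaling (0.0554) and without any 1 library other than the 8-week library 1 (0.0628 to 0.13). The mast cell protease Cpa3 was 96.4, 22.6, 89.9 and 15.9 FPKM at 8 weeks and 90.7, 91.7, 112 and 200.3 FPKM at 10 weeks and overlapped (1.44, adjusted p = 0.292). The summed list was 347, 158, 392 and 86.4 FPKM in the 8-week libraries 1 to 4 and 433 to 841 FPKM at 10 weeks. Its sum was 582 to 1144 FPKM in cKO at 2 weeks, 716 to 893 FPKM in WT at 8 weeks and 488 to 578 FPKM in WT at 10 weeks. The 10-week cKO level was thus high beside cKO at 8 weeks but not beside cKO at 2 weeks or WT at 8 weeks. The part of these cells in the rises of cytokine and chemokine genes was not tested.

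Among markers of other leukocytes 1 neutrophil and 1 dendritic cell gene passed, beside 1.59% of all genes. Hdc was the 1 called member of 9 neutrophil markers (median 0.25). The granule gene Elane, which is made mainly in marrow precursors, was listed at 0 in all 4 libraries of 10 weeks, Ngp was at 0 in 7 of the 8 libraries, and Csf3r, the receptor for granulocyte growth factor, was 0.242, 1.21, 0.32 and 0.611 FPKM at 8 weeks and 1.47, 1.16, 2.72 and 0.676 FPKM at 10 weeks. S100a8, which neutrophils and stressed keratinocytes both make, reached 838 FPKM in the 10-week library 3. The summed level of the 17 neutrophil genes in the files was 213 to 312 FPKM at 8 weeks and 179 to 1404 FPKM at 10 weeks. The part of these cells in the rise of neutrophil chemokines was not tested. Ccr7, which guides dendritic cells to lymph nodes, was 0.336, 0.276, 0.66 and 1.12 FPKM at 8 weeks and 2.05, 2.18, 3.41 and 2.42 FPKM at 10 weeks (1.15, SE 0.20, adjusted p = 0.027) and was the 1 called member of 12 dendritic and Langerhans cell markers (median 0.48). Its call ended without the 8-week library 2 or 3 or any 1 library of 10 weeks (0.0538 to 0.0969). Of 13 T and NK cell markers 0 passed (2 had an unadjusted p under 0.05), with a median of 0.07. With median-of-ratios scaling Cd4 (0.88 before scaling) and Il2rb (1.18) passed (0.0311 and 0.031), and Cd3g was 39.2, 21.4, 42.1 and 18.1 FPKM at 8 weeks and 20.7, 19.5, 18.2 and 32.1 FPKM at 10 weeks. Among 21 interferon response genes 1 rose, Irf1, a transcription factor that interferon and NF-kappa B both induce (from 11.1, 19.1, 8.64 and 13.8 FPKM at 8 weeks to 65.3, 61.9, 95.6 and 70.2 FPKM at 10 weeks; 2.42, SE 0.24, adjusted p = 0.00147), and the median was 0.18. In complement and acute phase genes 1 of 19 rose, the pattern recognition protein Ptx3 (from 2.73, 4.31, 1.81 and 7.02 FPKM at 8 weeks to 20.9, 16, 31.7 and 27 FPKM at 10 weeks; 2.39, SE 0.34, adjusted p = 0.0101). Both stayed called whichever library was left out. Type 2 response genes had 0 of 14 called (6 with an unadjusted p under 0.05) and a median of 0.02.

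**Figure D4:**
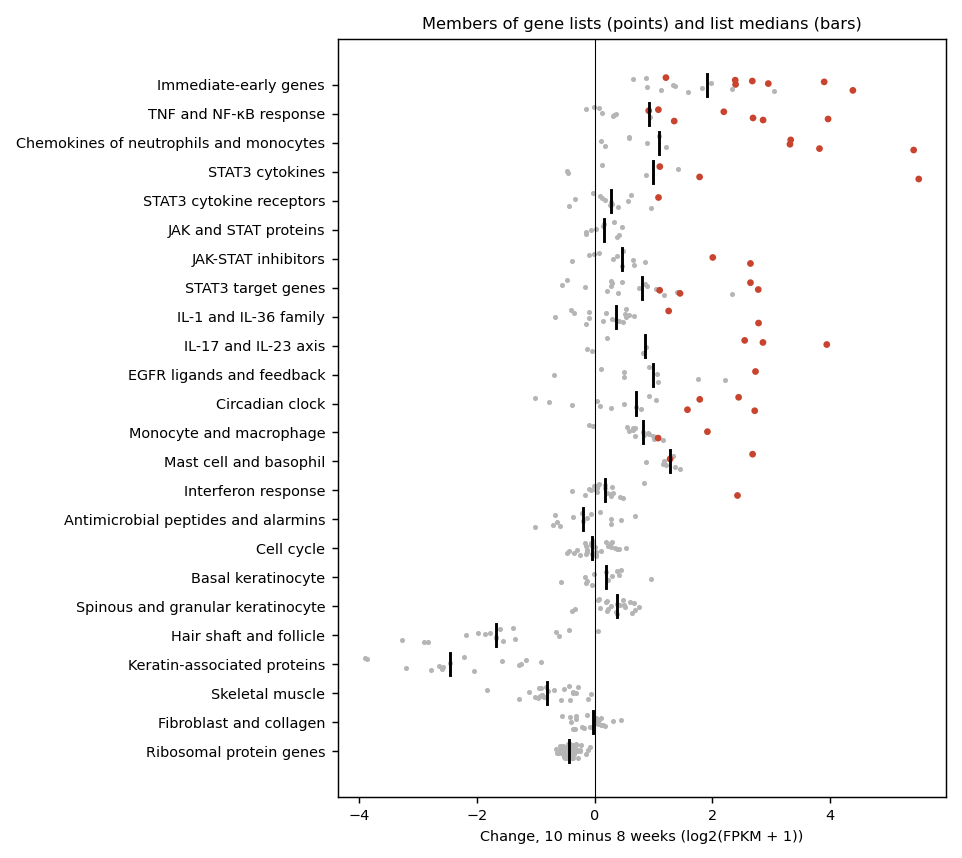
Change from 8 to 10 weeks (x axis, log2(FPKM + 1)) of the members of 24 gene lists that passed the filter, 1 point per gene, with called genes in red (higher) or blue (lower) and the median of each list as a black bar. Immediate-early genes have the highest median (1.91), and keratin-associated proteins the lowest (−2.45) with 0 called members.

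The lists of epidermal genes held 0 or 1 called member each, and at the 1.59% called over all genes a list of this size can hold none. Of 13 basal keratinocyte genes, 22 spinous and granular genes, 17 late cornified envelope genes, 9 small proline-rich genes and 18 lipid and barrier enzymes 0 passed (by limma 1, 0, 0, 0 and 5 had an unadjusted p under 0.05), with medians of 0.19, 0.37, 0.06, 0.40 and 0.31. The changes were positive in 20 of the 22 spinous and granular genes and in 17 of the 18 lipid and barrier enzymes, against 50.6% over all genes. Krt14 was 4006, 2842, 4669.8 and 3346 FPKM at 8 weeks and 2919.8, 2995, 3939 and 3438 FPKM at 10 weeks (−0.15, adjusted p = 0.866), and Krt10, the keratin of the spinous layer, was 1278, 2261, 3789 and 1705 FPKM at 8 weeks and 2303, 3850.5, 3454 and 1675 FPKM at 10 weeks (0.36, 0.734). The groups overlapped for both. Among 13 genes linked with hyperproliferative epidermis 1 rose, Ptgs2, the cyclooxygenase that makes prostaglandins (from 0.771, 0.283, 2.48 and 1.63 FPKM at 8 weeks to 28.7, 29.3, 41.5 and 42.1 FPKM at 10 weeks; 4.07, SE 0.31, adjusted p = 0.000329). The keratins of the same list did not pass. Cell cycle genes had 0 of 32 called (3 with an unadjusted p under 0.05) and a median of −0.04, and Pcna, the clamp of DNA replication, was 157, 84.2, 150.3 and 87.2 FPKM at 8 weeks and 92.9, 100.3, 85.1 and 146 FPKM at 10 weeks.

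The 10-week library 3 stood apart from the other 3 of its age in some epidermal, alarmin and interferon-induced genes. The alarmin S100a8 was 43.3, 81, 69.1 and 113 FPKM at 8 weeks and 7.42, 13.4, 838 and 16.5 FPKM at 10 weeks, so that library 3 was the highest of all 8 and the other 10-week libraries were the lowest 3. S100a9, its partner, was 27.3, 23.4, 58.5 and 91.5 FPKM at 8 weeks and 5.13, 13.8, 425 and 18.6 FPKM at 10 weeks. Krt16, a keratin of wounded and psoriatic epidermis, was 237, 183, 417 and 356 FPKM at 8 weeks and 283, 293, 1134 and 306 FPKM at 10 weeks, and Krt6b, its partner keratin, was 28.3, 30.3, 632 and 31.9 FPKM at 10 weeks. The cysteine protease inhibitor Stfa1 was 14, 17.3, 594 and 29.9 FPKM and the cornified envelope gene Sprr1b 18.5, 46.1, 208 and 24.7 FPKM at that age. The interferon-induced Isg15 was 4.72, 3.95, 51.2 and 6.22 FPKM and Ifit1 1.2, 1.22, 12.4 and 3.88 FPKM. Of these genes Krt6b, Stfa1, Sprr1b, S100a9, Isg15 and Ifit1 are named after their values were seen. The summed hyperproliferation list was 843, 893, 4001 and 961 FPKM in the 10-week libraries 1 to 4, against 731 to 1419 FPKM at 8 weeks. For antimicrobial peptides and alarmins 0 of 15 passed (1 had an unadjusted p under 0.05), with a median of −0.20. Without this library Il6, Cxcl1, Ptgs2 and Tnfaip3 were still called. Each lay above its highest 8-week level in all of the other 3 libraries, as did every risen gene.

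Hair genes lay lower at 10 weeks in most libraries but spread too widely to pass. Of 17 hair shaft and follicle genes 0 passed (13 had an unadjusted p under 0.05), 16 changes were negative and the median was −1.67. For 15 keratin-associated proteins, which bundle hair keratin, 0 passed (10 with an unadjusted p under 0.05), all 15 changes were negative and the median was −2.45. The inner root sheath keratin Krt71 was 54.5, 5.21, 133 and 20.9 FPKM at 8 weeks and 22.7, 0.397, 0.306 and 1.65 FPKM at 10 weeks (−3.28, SE 1.10, adjusted p = 0.208). The highest 10-week library thus lay among those of 8 weeks, and the lowest 8-week library near those of 10 weeks. Krtap8-1 was 57.7, 1.12, 201 and 44.3 FPKM at 8 weeks and 11, 0.298, 0.161 and 0.3 FPKM at 10 weeks (−3.89, adjusted p = 0.207), again with the 8-week library 2 low and the 10-week library 1 high. The family has near-identical copies among which reads may be split. The summed hair list was 250.3, 47.6, 720.3 and 147 FPKM at 8 weeks and 130.9, 24.8, 15.0 and 23.7 FPKM at 10 weeks. Its sum was 33.1 to 113.9 FPKM in cKO at 2 weeks, 16.7 to 48.1 FPKM in WT at 8 weeks and 28.1 to 40 FPKM in WT at 10 weeks. The 8-week cKO libraries 1, 3 and 4 thus lay above these 3 groups. In WT at 2 weeks Krt71 alone was 730 to 1083 FPKM. Skeletal muscle genes were lower in all 24 changes, with a median of −0.81 and 0 called (2 with an unadjusted p under 0.05). Their sum was highest in the 8-week libraries 1 and 2 (4693 and 3098 FPKM) and 853 to 1591 FPKM at 10 weeks.

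**Figure D5:**
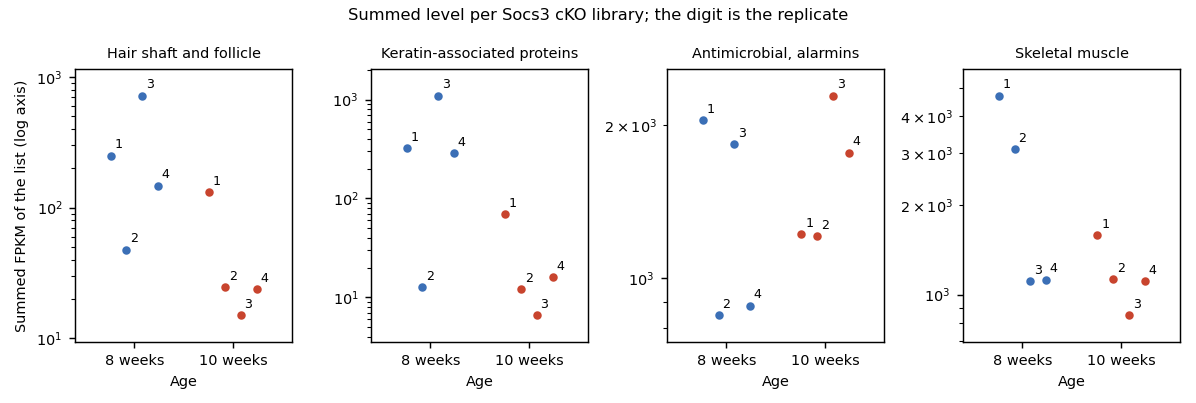
Summed FPKM per Socs3 cKO library (y axis, log scale) of 4 gene lists at 8 and 10 weeks; the digit beside each point is the replicate number. Hair and keratin-associated protein genes are highest in the 8-week library 3, antimicrobial and alarmin genes in the 10-week library 3, and muscle genes in the 8-week libraries 1 and 2.

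Genes of ribosomes and of mitochondria lay lower together without any member passing. Of 79 ribosomal protein genes 0 passed (0 with an unadjusted p under 0.05), all changes were negative and the median was −0.44. For the respiratory chain of mitochondria 73 nuclear genes were tested and 0 passed (23 with an unadjusted p under 0.05), 70 changes were negative and the median was −0.48. The groups overlapped for most of these genes. Rplp1 was 6135, 3102, 4895 and 3004 FPKM at 8 weeks and 2675, 2807, 2580.2 and 4243 FPKM at 10 weeks, with the 10-week library 4 between the 8-week libraries. Erythroid genes had 4 tested members, 0 called (by limma 4 had an unadjusted p under 0.05) and a median of −1.45. All 4 were lower at 10 weeks without overlap between the ages, against 4.63% of all genes. Hba-a1, an alpha globin with a near-identical copy, was 1829.6, 943, 1215 and 1532 FPKM at 8 weeks and 457, 255, 791 and 633 FPKM at 10 weeks (−1.44, adjusted p = 0.11). Fibroblast and collagen genes had 0 of 22 called (0 with an unadjusted p under 0.05) and a median of −0.03.

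The falls were smaller than the rises, and fewer in the fit described here but not in all settings. With array quality weights 1442 genes were higher and 2386 lower, and in the libraries with a ribosomal share under 20% the counts were 1146 and 1912. Spon2, a secreted matrix protein also known as mindin that binds integrins and bacterial products, was 8.3, 8.31, 9.74 and 18.6 FPKM at 8 weeks and 0.865, 1.07, 1.13 and 3.16 FPKM at 10 weeks (−2.26, SE 0.32, adjusted p = 0.0105). Its 10-week libraries all lay below those of 8 weeks, with library 4 apart from the other 3, and the call ended without the 10-week library 1, 2 or 3 (0.0513 to 0.0542). Rmrp, the RNA of an RNA-processing enzyme, was 9.31, 4.47, 9.13 and 11.51 FPKM at 8 weeks and 0.775, 2.14, 0.772 and 0.72 FPKM at 10 weeks (−2.18, SE 0.30, adjusted p = 0.00912) and stayed called whichever library was left out, but it is a short transcript and was 22.7 to 365 FPKM in WT at 8 weeks. Xcl1, a lymphocyte chemokine, was 31.3, 20.4, 30.9 and 11.8 FPKM at 8 weeks and 7.94, 4.69, 4.25 and 9.26 FPKM at 10 weeks (−1.67, SE 0.34, adjusted p = 0.0483), a call that ended with scaling (0.0684) and without any 1 library other than the 8-week library 4 (0.0518 to 0.175). Sox18, a transcription factor of vessels, was 5.19, 12.2, 7.07 and 11 FPKM at 8 weeks and 2.61, 1.54, 1.92 and 2.94 FPKM at 10 weeks (−1.56, SE 0.27, adjusted p = 0.0246), while 0 of 16 endothelial markers passed (2 with an unadjusted p under 0.05). The Sox18 call ended without the 8-week library 2, 3 or 4 or the 10-week library 1, 2 or 3 (0.0524 to 0.102). Zfp760, a zinc-finger gene, was 7.11, 5.18, 3.93 and 4.58 FPKM at 8 weeks and 1.54, 1.19, 0.865 and 1.38 FPKM at 10 weeks (−1.45, SE 0.20, adjusted p = 0.00836) and held its call in every such fit. Chchd8 (−1.57), Rpp38 (−1.37), Zfp60 (−1.21), Wdr5b (−1.19), Zfp160 (−1.17) and the histone gene Hist2h2bb (−1.16) completed the 12 largest falls, and each of these calls ended without the 10-week library 2 or 3 (0.0522 to 0.154) and in 5 of the 6 genes without others too. With median-of-ratios scaling Chchd8 (0.0526) and Rpp38 (0.0654) also missed the threshold.

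Whether these changes differed from those of WT ear over the same 2 weeks was tested for Socs3 and for the first 4 rises and falls, in a fit over all 22 libraries. The rises and falls were chosen for their change in cKO, which is part of the tested difference. Their differences and p-values are thus favoured by the choice. Compared with WT, the change in cKO was larger by 5.62 for Il6 (SE 0.42, adjusted p = 7.11e-08), 5.5 for Cxcl1 (SE 0.61, 1.98e-05), 4.3 for Fosl1 (SE 0.5, 3.62e-05) and 3.77 for Ptgs2 (SE 0.35, 2.56e-06). For Socs3 the difference was 1.59 (SE 0.66, adjusted p = 0.108), which did not pass, and the change in WT was 1.06. Spon2 fell more in cKO (−1.72, SE 0.4, adjusted p = 0.0153), but not after median-of-ratios scaling (−0.91, 0.275). Rmrp (−0.01), Xcl1 (0) and Ccl27a (−0.15) had changes of −2.17, −1.68 and −1.5 in WT, and these differences between genotypes did not pass. In all, 1327 of 14139 genes (9.39%) differed in this test, 124 higher and 1203 lower, with a median difference of −0.54 over all genes, and after scaling the counts were 387 and 101. Olfactory and vomeronasal receptor genes were above 0 for 34.8% to 74.3% of 1200 genes in the WT libraries of 8 and 10 weeks and for 4% to 7.25% in the 8 cKO libraries compared here. The part of that difference in this test was not tested.

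The called genes were also described by their transcripts and promoters. The 9-base AU-rich motif TTATTTATT, found in the 3′ untranslated region (UTR) of many short-lived mRNAs, was present in 33 of 153 risen genes with an annotated 3′ UTR (21.6%), in 2 of 47 fallen genes (4.26%) and in 967 of 12463 genes tested (7.76%). Among genes with a 3′ UTR of 500 to 2000 bases, the shares were 20.7%, 4.55% and 6.38%. The median 3′ UTR was 1267 bases in risen genes, 745 in fallen genes and 1124 in all tested. The median gene spanned 14501 bases among risen genes, 6439 among fallen genes and 22312 among all tested. In promoter windows of 300 bases (250 before and 50 after the RefSeq start, both strands searched), the kappa B motif was found for 18.1% of 116 risen genes, 4.65% of 43 fallen genes and 6.42% of 10023 tested genes with a window. The STAT motif TTCNNNGAA was found for 17.2%, 20.9% and 8.16%, thus also in the fallen genes. The AP-1 motif TGANTCA was found for 12.1%, 9.3% and 6.89%, the cyclic AMP response element TGACGTCA for 8.62%, 9.3% and 3.42%, and the CArG box of serum response factor for 2.59%, 0% and 1.63%. Among all 32851 windows 4.51% held kappa B, 8.3% STAT, 7.81% AP-1, 1.79% the cyclic AMP element and 1.63% the CArG box. Matches of different motifs may overlap each other. These shares describe letters in annotated sequence of another build and were not tested.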

How the data were processed

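RNA from ear specimens was prepared with TRIzol, made into unstranded libraries (TruSeq RNA v2) and read as single 50-base reads on a HiSeq instrument, per the labels' protocols. The tools were TopHat2 2.1.0 and Cufflinks and the build was mm9, per the submitters' processing notes. Which annotation, filters or Cufflinks version were used is not given in the sources used here. The authors deposited FPKM for 21110 gene symbols per library. FPKM are not counts, and no count model was used.

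The 8 libraries were fitted with limma 3.58.1 (R 4.3.3) on log2(FPKM + 1), with moderated variances that follow a trend with level, for genes of at least 1 FPKM in at least 4 libraries. Tests are two-sided and adjusted over all 13000 genes. Gene lists (49) are described by counts and medians without a test, for the 47 with at least 4 tested members. Named genes are Socs3, the 12 largest rises and falls among called genes without overlap (unnamed gene models and small RNA genes with the usual prefixes passed over, which do not cover Rmrp), and up to 4 called members, or the 2 most abundant, of each list. Some genes so named are not reported here, and other list members were named after their values were seen. The members, lists and tests were chosen with earlier results of these data known.

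The scripts were tested on simulated data. No 2 libraries held identical values. The alternatives were another pseudocount (0.1), filter, scaling, sample set, array quality weights, a replicate block, the Eif2s3y level as a covariate, a length trend removed (lengths for 99.1% of genes), a threshold on change and leaving out each library. After the data were seen, the ribosomal share as a covariate, only libraries with a share under 20%, and small RNA genes, Rmrp included, left out were added, as were 3 promoter motifs. Transcript lengths and 3′ UTRs came from GENCODE on GRCm38 and promoters from RefSeq on GRCm38.p6, matched by symbol. Python 3.11.15, numpy 2.4.6, pandas 2.3.3, scipy 1.17.1 and matplotlib 3.10.9 made the tables and figures.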

Additional observations from a re-analysis of the deposited data

Results flagged for a closer look

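Among 116 groups of 4 libraries of the named genes that were examined, 7 had a library far from the other 3, about the 1 in 20 that chance gives. At 10 weeks, library 4 was the highest for Spon2 (3.16 FPKM) and for Il10 (3.42 FPKM) and the lowest for Myc (31.7 FPKM). Library 2 of that age was the highest for Rmrp (2.14 FPKM), and library 3 for Cish (31.6 FPKM). At 8 weeks, library 1 was the highest for Zfp160 (11.3 FPKM) and library 2 for Per2 (2.81 FPKM). The ages did not overlap in these genes, but that held for every called gene and so says nothing about the outlying libraries.

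The change from 8 to 10 weeks differed between the libraries labelled cKO and WT, in a limma test of the difference itself, for Il6 (5.62), Cxcl1 (5.5), Fosl1 (4.3), Ptgs2 (3.77) and Spon2 (−1.72). The first 4 were also called with median-of-ratios scaling (3.82 to 5.76), and Spon2 was not. These genes were chosen for their change in cKO, which is part of this difference and so favours it.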

How the results depend on the processing

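Of the 58 named genes that were called, 28 (26 higher, 2 lower) stayed called whichever library was left out, and no called gene changed sign in any setting. The count of genes called was 136 (18 lower) with a filter at 5 FPKM, 396 (271 higher, 125 lower) with all 22 libraries in the fit, 3828 (1442 and 2386) with array quality weights, and 64 (61 and 3) with the replicate block. It was 435 (235 and 200) with the ribosomal share as a covariate and 3058 (1146 and 1912) in the 2 and 3 libraries with a share under 20%, both settings chosen after the data were seen. Genes lower numbered 29 with median-of-ratios scaling, 23 with the Eif2s3y covariate and 25 at an absolute change of at least 1. Leaving out 1 library gave 57 to 237 genes called, 53 to 170 higher and 2 to 94 lower, the fewest without the 10-week libraries 1 to 3. The cause was not tested.

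Same-numbered libraries of the 2 ages did not deviate together (r = −0.09, 0.15, 0.1 and −0.31), and no 8-week library deviated most like the one of its own number. These correlations cannot exclude a pairing, and Eif2s3y was high in replicates 1 and 2 of both ages. Whether the numbers pair the libraries is thus unknown, and the replicate block is given only here. It left Socs3 called (2.65, adjusted p = 0.0248) and ended the calls of 23 of the other 57 named genes. Socs3 was called in every setting, with a change of 2.25 to 2.88 when a library was left out, and its difference between genotypes in none, the block included (1.59, adjusted p = 0.0685).

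For the difference between genotypes 488 genes were called with scaling, 2110 with the replicate block and 310 (without WT 10-week library 2) to 3623 (without WT 8-week library 2) when a library was left out. Differences of 3 genes that were near 0 turned sign. Xcl1 was −0.0113 with a pseudocount of 0.1, Rmrp 0.85 and Ccl27a 0.64 with scaling. When 1 library was left out, Rmrp ran from −1.32 to 0.69, Xcl1 from −0.41 to 0.27 and Ccl27a from −0.432 to 0.0605. Depth in reads is unknown and a value near 0 FPKM has no known precision, and 4 libraries per group limit what can be called.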

Other observations

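Of the 156 risen genes 106 were in none of the lists. The following of them are named after their values were seen. The nuclear receptors Nr4a2 and Nr4a3, relatives of Nr4a1, were among the largest. Nr4a3 was 0.0394, 0.125, 0.232 and 0.67 FPKM at 8 weeks and 12.5, 14.4, 12.1 and 4.66 FPKM at 10 weeks (3.16, SE 0.32, adjusted p = 0.00147), and Nr4a2 was 0.657, 2.45, 1.2 and 5.17 FPKM at 8 weeks and 36, 35.8, 34.1 and 11.4 FPKM at 10 weeks (3.22, SE 0.47, adjusted p = 0.0113). For both the 10-week library 4 was the lowest of its age. The NF-kappa B subunit Rel was 1.06, 1.17, 1.85 and 2.36 FPKM at 8 weeks and 13.7, 14.4, 19.2 and 6.15 FPKM at 10 weeks (2.39, SE 0.32, adjusted p = 0.00832), while Nfkb1, Nfkb2, Rela and Relb were not called. The lists of the unfolded protein response and of the oxidative stress response had 0 of 15 and 0 of 12 members called (by limma 2 and 3 had an unadjusted p under 0.05), with medians of −0.07 and 0.09. Genes in no list that rose included the growth arrest gene Gadd45b (2.32), the phosphatase subunit Ppp1r15a (1.99), the heat shock cochaperones Dnajb1 (1.27) and Dnajb4 (1.24), and the metallothioneins Mt1 (1.37) and Mt2 (1.46), which bind zinc. Mt2 was 649.97, 414, 500.1 and 584 FPKM at 8 weeks and 1544, 1241, 1450.2 and 1638 FPKM at 10 weeks. Tsc22d3, a gene induced by glucocorticoids, was 33.8, 68.7, 34 and 48.9 FPKM at 8 weeks and 154, 117, 107 and 157 FPKM at 10 weeks (1.55, SE 0.25, adjusted p = 0.0189), and Sgk1, a kinase induced by them, was 1.25. Cd83, a surface protein of activated dendritic cells, was 4.5, 2.37, 5.12 and 3.32 FPKM at 8 weeks and 18.9, 19, 16.4 and 29.7 FPKM at 10 weeks (2.19, SE 0.25, adjusted p = 0.00299). The calls of Nr4a3, Rel, Gadd45b and Cd83 held whichever library was left out, and those of the others named here held in 2 (Mt1) to 7 (Sgk1) of the 8 fits that left out 1 library. The Mt1 call ended with median-of-ratios scaling (0.0743).

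Of the 51 fallen genes 18 (35.3%) bear a zinc-finger symbol (Zfp, Zbtb, Zscan or Zkscan), as do 290 of the 13000 tested (2.23%) and 1 of the 156 risen genes, Zfp36. The fallen genes with such a symbol are Zfp genes and Zbtb3. Besides those given above they include Zfp708 (−1.14), Zfp54 (−1.02) and Zfp563 (−0.67), named after their values were seen and called in 4, 2 and 0 of the 8 fits that left out 1 library. Zfp708 was 3.53, 2.27, 3.57 and 1.87 FPKM at 8 weeks and 0.806, 0.672, 0.507 and 0.79 FPKM at 10 weeks. Over all 290 such genes the median change was −0.17, 190 changes were negative (65.5%), and the median level over genes was 4.26 FPKM at 8 weeks and 3.57 FPKM at 10 weeks. This group was noticed in the data, so its share is a description.

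Over the 156 risen genes the median log2(FPKM + 1) was 2.09, 2.46, 2.69 and 2.88 in the 8-week libraries 1 to 4 and 4.45, 4.4, 4.72 and 4.18 in those of 10 weeks. Libraries of 2 weeks had medians of 2.29 to 3.05 (cKO) and 2.7 to 2.77 (WT), and the older WT libraries had 1.32 to 2.3. These genes were chosen for their difference between 8 and 10 weeks in cKO, and the levels of the other groups, which the choice did not use, lay at or near those of cKO at 8 weeks or below them.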
